A study of Mus musculus with 24 samples.

Results

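The experiment is the induction of 1 hairpin, shOgdh346, in RN2 cells: its 4 libraries of day 4, taken after 4 days of doxycycline, were set against its 4 libraries of day 0, taken before any doxycycline. These 8 libraries were chosen by their labels from the 24 of the study. RN2 is a mouse acute myeloid leukaemia line driven by the Mll-Af9 fusion together with NrasG12D, and every group of the study carries both. Cells were transduced with a retrovirus from which doxycycline switches on a short hairpin RNA. shOgdh346 is directed against Ogdh and was carried by clones 1 and 5. The control hairpin shRen713 (clones 2 and 7) and the other hairpin against Ogdh, shOgdh2081 (clones 3 and 5), were sampled on the same days, with 2 libraries for each clone and day throughout. A hairpin is thus represented by 2 clonal isolates, and clone 5 of shOgdh2081 is labelled with another hairpin than clone 5 of shOgdh346. Doxycycline and 4 further days of culture separate day 4 from day 0 in every hairpin, so that these are shared with the control and cannot be told apart from hairpin induction in shOgdh346 alone.

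Ogdh encodes the first of the catalytic subunits of the 2-oxoglutarate dehydrogenase complex, a mitochondrial enzyme of the tricarboxylic acid (TCA) cycle that turns 2-oxoglutarate into succinyl-CoA. Its partners are Dlst, which carries the succinyl group on a lipoyl arm, and Dld, which re-oxidises that arm, while the enzymes Lias, Lipt1 and Lipt2 build and attach the lipoyl group. 2-Oxoglutarate is also a substrate of dioxygenases that demethylate DNA and histones and hydroxylate hypoxia-inducible factor, and the partner of glutamate in transamination. Cells driven by Mll-Af9 resemble granulocyte and monocyte progenitors that do not mature, and loss of this arrest shows as genes of granules, surface receptors and inflammatory mediators of mature myeloid cells.

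The shOgdh346 libraries held between 7445472 and 18718239 counts, with 16876 to 19468 genes detected, and mitochondrial genes took 1.79% to 2.23% of the counts. Libraries of the same clone and day differed more at day 0 than at day 4: a chi-square statistic per gene came to 7.196 and 9.695 for the pairs at day 0 and to 2.63 and 2.67 at day 4. The progenitor markers fixed for these cells, 12 genes that include Kit, Mpo, Elane and Spi1, were all detected, with a summed level of 7297 to 11830 CPM at day 0 and of 5175 to 5441 CPM at day 4, against 8642 to 9599 CPM and 12560 to 14340 CPM in the control. Markers of T and NK and of erythroid cells were at or near 0, with summed levels of at most 1.47 and 2.42 CPM. Those of B cells summed to 1.66 to 17.6 CPM at day 0 and 1.46 to 14.5 CPM at day 4, against at most 1.74 CPM in the control. Markers of dendritic cells summed to 34.4 to 77.3 CPM at day 0 and 21.1 to 34.2 CPM at day 4, those of mast cells, basophils and eosinophils to 36.3 to 73.7 CPM and 50.6 to 113 CPM, and those of stromal, endothelial and epithelial cells to 311 to 402 CPM and 244 to 375 CPM. The 7 markers of megakaryocytes and platelets summed to 6.91 to 13.4 CPM at day 0, with Pf4 and Ppbp at 0, and to 27.1 to 55.4 CPM at day 4. The part of any of these in the results below was not tested. The cultures were sequenced in bulk, so fewer cells of a type and less RNA per cell cannot be told apart.

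Ogdh was lower at day 4 in both clones. Ogdh (ENSMUSG00000020456, chr11:6291633-6356642 in GRCm38, plus strand) stood at 126 and 136 CPM in clone 1 and 146 and 149.8 CPM in clone 5 at day 0, and at 34.996 and 34.9 CPM in clone 1 and 52.8 and 57.96 CPM in clone 5 at day 4, where CPM are counts scaled to a common library size. Every day 4 library lay below every day 0 library, and clone 1 reached the lower level. The change was -1.66 ± 0.16 (SE, adjusted p = 7.11e-05) on the log2 scale. Adjusted p-values of changes come from a quasi-likelihood fit in edgeR, adjusted over all 14249 genes tested by the Benjamini-Hochberg method. Each hairpin has 2 clones. These p-values rest on a spread between clones that is pooled over the hairpins and drawn towards that of other genes. By clone the change was -1.89 in clone 1 and -1.43 in clone 5. The difference between clones came from a separate edgeR fit with single shOgdh346 libraries as units, adjusted over 11750 genes. It passed in 5 alternatives but not in that reported fit (adjusted p = 0.0513). This p-value rests on the spread between libraries of a clone and day, not on that between clones. Relative to the change of -0.018 in the control, the Ogdh change with shOgdh346 was -1.64 ± 0.21 (SE, adjusted p = 0.00114) in the fit over 14249 genes. The plot of Ogdh in all libraries shows that the day 0 level of the shOgdh346 clones, before doxycycline, was already below that of the control clones.

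**Figure D1:**
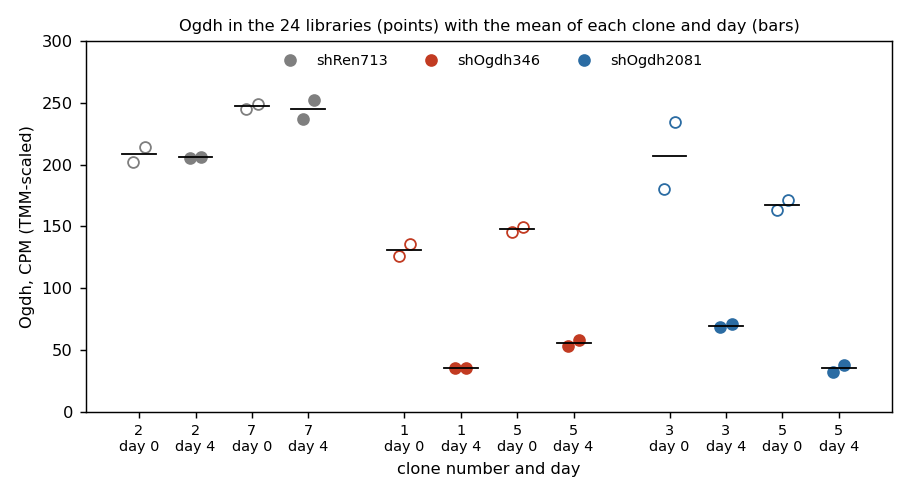
Ogdh level (vertical axis, CPM on TMM-scaled library sizes, from 0) in each of the 24 libraries by hairpin, clone and day (horizontal axis); open points are day 0, filled points day 4, and bars the mean of the 2 libraries of a clone and day. The 4 filled shOgdh346 points lie between 34.9 and 58.0 CPM, below its 4 open points at 126 to 149.8 CPM and below every control library.

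More genes moved with shOgdh346 than did not. Of 14249 genes tested, 4302 rose (30.2%) and 4174 fell (29.3%), 59.5% in all. Past a 2-fold change 2126 rose (14.9%) and 1009 fell (7.08%), so large changes were more often rises. In the control 633 genes rose (4.44%) and 347 fell (2.44%), 6.88% in all. With the control's change subtracted, 2339 were higher (16.4%) and 2626 lower (18.4%), 34.8% in all. The median log2 change of all genes tested was 0.013 with shOgdh346, -0.0087 in the control and -0.0028 for the difference. The 4 day 4 libraries lay wholly above the 4 of day 0 for 3786 genes (26.6%) and wholly below for 3863 (27.1%). Without clone 1, 2900 rose and 2919 fell. Counts over gene lists below are to be read against these shares and medians. Genes of a list that are named because 5 or fewer of its members moved in a direction were named after their values were seen, as were S100a9, Lyz2, Thbs1, Hoxa9, Meis1, Cd34, Suclg2, Atf4, Uhrf1, Espl1 and Nras.

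**Figure D2:**
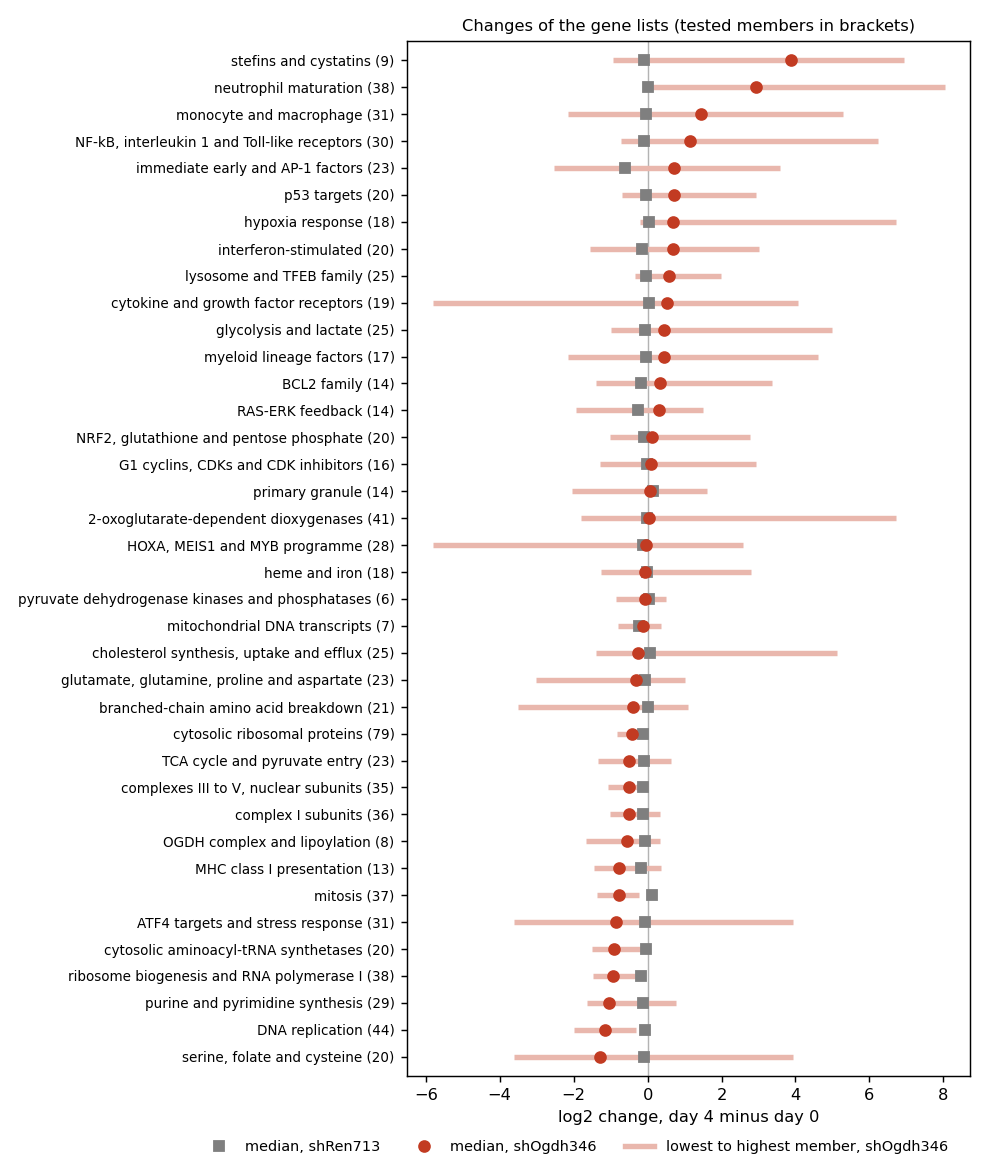
Log2 change from day 0 to day 4 (horizontal axis) for 38 gene lists (vertical axis, with the number of tested members in brackets); red circles are list medians with shOgdh346, grey squares list medians in the shRen713 control, and pale bars run from the lowest to the highest member with shOgdh346. Medians with shOgdh346 run from -1.29 for serine, folate and cysteine genes to 3.88 for stefins and cystatins, while the control medians run from -0.62 for immediate early genes to 0.14 for primary granule genes; P4ha2, the highest member of the hypoxia and dioxygenase lists, had 0 counts at day 0, so that its position is not a measured fold.

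**Figure D3:**
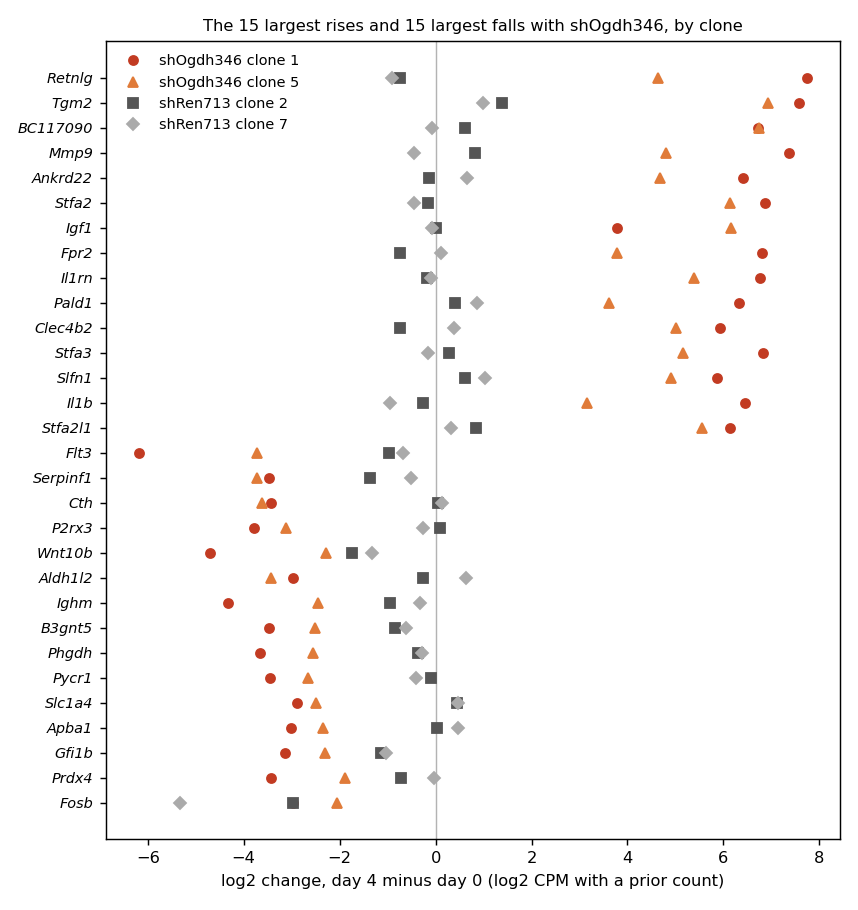
Log2 change from day 0 to day 4 (horizontal axis, log2 CPM with a prior count of 2) of the 15 genes with the largest rises and the 15 with the largest falls with shOgdh346 (vertical axis), in each shOgdh346 clone and each control clone. The genes are called genes of at least 5 CPM, gene models outside the lists left out, and were chosen for no overlap between the days, which puts both shOgdh346 clones on 1 side of 0. The control clones lie nearer to 0 than both of them for every gene but 1; Fosb, at the bottom, fell in both control clones as well.

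Among the other genes of the complex and its lipoylation, those that build and attach lipoyl groups fell, while the remaining catalytic subunits were not called. In this list, 8 were tested, 0 rose and 5 fell, with a median log2 change of -0.56, and none was called in the control. Lipt2, which transfers the octanoyl precursor of the lipoyl group, fell by 1.29 ± 0.21 (SE, adjusted p = 0.000752), and Lias, which inserts the sulfur atoms, fell by 0.48 ± 0.09 (SE, adjusted p = 0.00154). Mrps36, a protein of the complex that tethers the Dld subunit, fell by 0.79 ± 0.20 (SE, adjusted p = 0.00833); 22.1% of the 76-base windows of its transcripts also occur in other genes, so its value is uncertain. Lipt1, which passes the lipoyl group on to the target enzymes, fell by 0.65 ± 0.24 (SE, adjusted p = 0.0419). Dlst was at 0.35 ± 0.14 (SE, adjusted p = 0.0575) and passed as a rise in 11 of the 21 alternatives, among them both other scalings and DESeq2. Dld was at -0.15 ± 0.08 (SE, adjusted p = 0.144) and passed as a fall without clone 1 (-0.29, adjusted p = 0.0374). Ogdhl, the paralogue of Ogdh, was at -0.26 ± 0.28 (SE, adjusted p = 0.445). In the control Lipt2 changed by -0.53, Mrps36 by -0.51 and Lipt1 by -0.37. Relative to the control, Ogdh and Lias were the 2 members that were lower (Lias by -0.48, adjusted p = 0.0177). The call of Mrps36 was lost in DESeq2 (-0.76, adjusted p = 0.0504) and without clone 1 (-0.72, adjusted p = 0.0766). The call of Lipt1 was lost with upper quartile scaling, in DESeq2, without the clone block, against the day 0 replicate 1 libraries alone, against the day 0 replicate 2 libraries alone, without day 0 replicate 1 of clone 1, without day 0 replicate 2 of clone 5, without day 4 replicate 2 of clone 1 and without clone 1, with values from -0.66 to -0.44 and adjusted p of up to 0.317. The count of falls was 3 in DESeq2 and 3 among genes of at least 5 CPM.

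Most enzymes of the TCA cycle and of pyruvate entry were lower at day 4. In this list, 23 were tested, 1 rose and 19 fell, with a median log2 change of -0.51, with medians of -0.61 in clone 1 and -0.48 in clone 5. In the control, 0 rose and 0 fell (median -0.10), while 1 was higher and 14 lower once the control was subtracted. Fumarase, Fh1, stood at 144 and 133 CPM in clone 1 and 138 and 143 CPM in clone 5 at day 0, and at 54.6 and 51.5 CPM in clone 1 and 64.2 and 60.04 CPM in clone 5 at day 4. Its 4 day 4 libraries were the lowest, and they fell by 1.29 ± 0.10 (SE, adjusted p = 1.13e-05). The mitochondrial NADP-dependent isocitrate dehydrogenase Idh2, one of the enzymes that make 2-oxoglutarate, stood at 347 and 323 CPM in clone 1 and 276 and 283 CPM in clone 5 at day 0, and at 158 and 171 CPM in clone 1 and 172 and 163 CPM in clone 5 at day 4. It fell in both clones to a like level, by 0.89 ± 0.09 (SE, adjusted p = 4.04e-05). Idh3a, the catalytic subunit of the NAD-dependent isocitrate dehydrogenase, fell by 1.03 ± 0.09 (SE, adjusted p = 2.65e-05), and Pdhb, of pyruvate dehydrogenase, by 0.73 ± 0.07 (SE, adjusted p = 3.46e-05). Suclg2, a succinyl-CoA ligase subunit one step after OGDH, fell by 1.35 ± 0.16 (SE, adjusted p = 0.000142). The single rise was that of Mpc2, a subunit of the mitochondrial pyruvate carrier, at 0.64 ± 0.12 (SE, adjusted p = 0.00179). Pdhb shares 19.5% and Suclg2 13.8% of their 76-base transcript windows with other genes.

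The enzymes that switch pyruvate dehydrogenase off and on moved in both directions, and the share called was near the 59.5% of all genes tested. The kinase Pdk1 rose by 0.51 ± 0.08 (SE, adjusted p = 0.000451), while the phosphatase Pdp2 and its regulatory subunit Pdpr fell by 0.86 ± 0.13 (SE, adjusted p = 0.000455) and 0.64 ± 0.13 (SE, adjusted p = 0.00199); these were the 3 of 6 tested that were called (median -0.070). With shRen713 the counts were 0 and 0 and the median 0.027, and 0 were higher and 2 lower relative to the control. The change of Pdk1 was 0.28 in the control, and the difference was 0.23 (adjusted p = 0.136). The call of Pdk1 was lost against the day 0 replicate 1 libraries alone (0.25, adjusted p = 0.0609). Its change was 0.95 against the day 0 replicate 2 libraries alone and 0.33 without day 0 replicate 2 of clone 5. The change of Pdp2 was -0.54 against the day 0 replicate 2 libraries alone.

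Subunits of the respiratory chain that are encoded in the nucleus fell by a like amount, while transcripts of mitochondrial DNA did not move together. Of complex I subunits, 36 were tested, 1 rose and 26 fell, with a median log2 change of -0.51. For the control hairpin, 0 rose and 0 fell, with a median of -0.11, and net of the control 2 were higher and 16 lower. Ndufv1, which binds NADH, stood at 95.5 and 92.9 CPM in clone 1 and 89.8 and 94.4 CPM in clone 5 at day 0, and at 47.6 and 54.5 CPM in clone 1 and 57.4 and 52.7 CPM in clone 5 at day 4. All day 4 libraries lay below those of day 0, with a change of -0.80 ± 0.08 (SE, adjusted p = 3.98e-05). Ndufa5 and Ndufa12 fell by 1.02 ± 0.11 (SE, adjusted p = 5.19e-05) and 0.91 ± 0.10 (SE, adjusted p = 6.48e-05), and Ndufa13 rose by 0.34 ± 0.07 (SE, adjusted p = 0.00325). Of complexes III to V, 35 were tested, 0 rose and 31 fell, with a median log2 change of -0.51. Under shRen713, 0 rose and 1 fell, and the median was -0.13, while 0 were higher and 16 lower once the control was subtracted. Cyc1, cytochrome c1 of complex III, fell by 0.85 ± 0.09 (SE, adjusted p = 5.01e-05), and Atp5g2 and Atp5o of the ATP synthase by 1.07 ± 0.09 (SE, adjusted p = 2.09e-05) and 0.90 ± 0.09 (SE, adjusted p = 3.22e-05). Without clone 1 the count of falls in complexes III to V was 20. Of transcripts of mitochondrial DNA, 7 were tested, 1 rose and 2 fell, with a median log2 change of -0.13. Control clones gave 0 rises, 0 falls and a median of -0.24, and 0 were higher and 0 lower relative to the control.

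mt-Co1, a subunit of cytochrome c oxidase made inside mitochondria, stood at 7199 and 6789 CPM in clone 1 and 7179 and 6632 CPM in clone 5 at day 0, and at 8796 and 8657 CPM in clone 1 and 8896 and 9419 CPM in clone 5 at day 4. The day 4 libraries were the higher ones in both clones, by 0.35 ± 0.12 (SE, adjusted p = 0.0291). mt-Nd1 of complex I fell by 0.79 ± 0.12 (SE, adjusted p = 0.000486), against -0.43 in the control. mt-Nd2 fell by 0.39 ± 0.11 (SE, adjusted p = 0.0111), against -0.24 in the control. None of the 3 passed relative to the control, at 0.40 (adjusted p = 0.0926) for mt-Co1, -0.36 (adjusted p = 0.133) for mt-Nd1 and -0.15 (adjusted p = 0.466) for mt-Nd2. Between 21.8% and 39.4% of the 76-base transcript windows of mt-Co1, Atp5g2, Atp5o, Ndufa12 and Ndufa13 occur in other genes, so their values are uncertain. The call of mt-Co1 was lost against the day 0 replicate 1 libraries alone (0.32, adjusted p = 0.0614), without clone 1 (0.39, adjusted p = 0.0899) and without clone 5 (0.29, adjusted p = 0.1599). The call of mt-Nd2 was lost with the 24 libraries as units, with the replicate block, against the day 0 replicate 2 libraries alone, without day 0 replicate 1 of clone 5 and without clone 1, with values from -0.31 to -0.13 and adjusted p of up to 0.257.

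Genes that make serine, cysteine and one-carbon units had the lowest median of all lists. In this list, 20 were tested, 2 rose and 16 fell, with a median log2 change of -1.29. Induction of the control hairpin gave 1 and 0, with a median of -0.10, and net of the control 1 was higher and 16 lower. Cth, which releases cysteine from cystathionine, stood at 18.2 and 11.1 CPM in clone 1 and 37.8 and 22.7 CPM in clone 5 at day 0, and at 1.67 and 1.21 CPM in clone 1 and 2.196 and 2.52 CPM in clone 5 at day 4. Clone 5 began higher than clone 1. Every day 4 library lay below every day 0 library, but Cth belongs to the largest falls, which were chosen for no overlap between days. The change was -3.602 ± 0.17 (SE, adjusted p = 1.46e-06). Phgdh, the first enzyme of serine synthesis, stood at 209.96 and 187 CPM in clone 1 and 242 and 217 CPM in clone 5 at day 0, and at 16.5 and 15.6 CPM in clone 1 and 39.1 and 38.1 CPM in clone 5 at day 4. It fell in both clones by 3.07 ± 0.49 (SE, adjusted p = 0.00495), and to a lower level in clone 1; 45.6% of its 76-base transcript windows occur in other genes, so its value is uncertain. Shmt2, which splits serine in mitochondria, stood at 579.8 and 465 CPM in clone 1 and 612 and 583 CPM in clone 5 at day 0, and at 111 and 119.5 CPM in clone 1 and 151 and 145 CPM in clone 5 at day 4, without overlap between the days. It fell by 2.12 ± 0.12 (SE, adjusted p = 3.29e-06), its cytosolic counterpart Shmt1 by 1.37 ± 0.08 (SE, adjusted p = 3.59e-06), and Mthfd1l, which releases formate from the mitochondrial folate pathway, by 1.42 ± 0.09 (SE, adjusted p = 4.08e-06). Aldh1l2, which oxidises mitochondrial formyl-folate, fell by 3.33 ± 0.29 (SE, adjusted p = 2.21e-05), with 16.3% of its windows shared.

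Against these falls, 2 members of the list rose. Slc7a11, the cystine importer, stood at 20.6 and 13.9 CPM in clone 1 and 24.6 and 16.6 CPM in clone 5 at day 0, and at 466 and 453 CPM in clone 1 and 182 and 181 CPM in clone 5 at day 4. Clone 1 rose further than clone 5, and the rise was 3.94 ± 0.48 (SE, adjusted p = 0.00193), against -0.42 in the control. Amt, a part of the glycine cleavage system, rose by 1.28 ± 0.30 (SE, adjusted p = 0.00484), and it rose in the control by 1.41 (adjusted p = 0.0302), so that the difference was -0.14 (adjusted p = 0.834). The call of Amt was lost in DESeq2 (1.31, adjusted p = 0.0553) and without clone 1 (1.22, adjusted p = 0.0774).

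ATF4 is a transcription factor that raises amino acid synthesis and uptake when amino acids run short, and most of its known targets were lower at day 4. In this list, which shares Asns, Cth, Phgdh and others with the lists of serine and glutamate genes, 31 were tested, 5 rose and 21 fell, with a median log2 change of -0.85, with medians of -0.74 in clone 1 and -1.11 in clone 5. The control had 3 rises and 2 falls (median -0.060), while 3 were higher and 19 lower once the control was subtracted. In the 250 bases before the start site, the ATF4 motif TGATGNAAN was found on either strand in 29.4% of the 17 fallen members with a promoter in the RefSeq table, in 26.9% of the 26 tested members, and in 2.46% of the 9949 tested genes with one. The list holds known targets of the factor, so the share says nothing on which of them fell. The windows below hold it for 3 of these fallen genes, with the motif in capitals, in GRCm38.p6 from RefSeq, each read along the gene's own strand; in Pck2 the capitals are its reverse complement.
Asns (chr6:7693210-7693299, minus strand): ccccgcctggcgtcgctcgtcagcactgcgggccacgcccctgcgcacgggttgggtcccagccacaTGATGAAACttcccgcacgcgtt
Pck2 (chr14:55540122-55540211, plus strand): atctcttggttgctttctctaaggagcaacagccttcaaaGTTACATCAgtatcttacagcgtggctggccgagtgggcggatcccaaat
Pycr1 (chr11:120643802-120643891, minus strand): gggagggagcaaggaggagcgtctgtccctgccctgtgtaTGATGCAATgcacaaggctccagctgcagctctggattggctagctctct
A match is a run of letters and says nothing on binding.

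Asns, the asparagine synthetase, stood at 234 and 199.9 CPM in clone 1 and 332 and 257 CPM in clone 5 at day 0, and at 40.5 and 41.4 CPM in clone 1 and 66.7 and 61.6 CPM in clone 5 at day 4. All 4 libraries of day 4 were lower, with a change of -2.301 ± 0.10 (SE, adjusted p = 1.27e-06) and a control change of -0.060. Pck2, the mitochondrial phosphoenolpyruvate carboxykinase, stood at 158 and 151 CPM in clone 1 and 185 and 207 CPM in clone 5 at day 0, and at 41.7 and 40.6 CPM in clone 1 and 65.9 and 64.2 CPM in clone 5 at day 4. It fell by 1.76 ± 0.09 (SE, adjusted p = 2.18e-06). Pycr1, the mitochondrial enzyme of the last step to proline, stood at 62.9 and 43.4 CPM in clone 1 and 78.5 and 54.7 CPM in clone 5 at day 0, and at 4.999 and 5.19 CPM in clone 1 and 11.1 and 8.87 CPM in clone 5 at day 4. Its change was -3.02 ± 0.18 (SE, adjusted p = 4.53e-06), with a lower end level in clone 1. Slc1a4, a carrier of serine and other neutral amino acids, fell by 2.73 ± 0.24 (SE, adjusted p = 2.35e-05). Atf4 itself was at -0.73 ± 0.12 (SE, adjusted p = 0.000845). The 5 members that rose were Slc7a11 and the stress regulators Ddit4 (1.94 ± 0.11), an inhibitor of mTORC1, Atf3 (1.68 ± 0.39), Sesn2 (0.61 ± 0.12) and Cebpg (0.43 ± 0.14). In the control Ddit4 rose by 0.73 and Cebpg by 0.84, and Atf3 had a change of -2.798 (adjusted p = 0.0252). Relative to the control, Cebpg was at -0.41 (adjusted p = 0.148) and Sesn2 at 0.47 (adjusted p = 0.0595). Atf3 stood at 3.19 and 0.115 CPM in clone 1 and 7.56 and 0.965 CPM in clone 5 at day 0, and at 3.46 and 3.81 CPM in clone 1 and 21.6 and 20.3 CPM in clone 5 at day 4. The call of Atf3 was lost without the clone block, with the 24 libraries as units, with the 8 shOgdh346 libraries alone, without day 0 replicate 1 of clone 5 and without clone 5, with values from 0.72 to 2.22 and adjusted p of up to 0.148. Its change was 0.91 against the day 0 replicate 1 libraries alone, 4.54 against the day 0 replicate 2 libraries alone and 2.69 without day 0 replicate 1 of clone 1. The call of Sesn2 was lost without clone 1 (0.37, adjusted p = 0.0656). The call of Cebpg was lost without the clone block, with the 24 libraries as units, with the replicate block, with the 8 shOgdh346 libraries alone, against the day 0 replicate 2 libraries alone, without day 0 replicate 1 of clone 1, without day 0 replicate 1 of clone 5, without day 4 replicate 1 of clone 5 and without clone 1, with values from 0.091 to 0.44 and adjusted p of up to 0.585. Its change was 0.77 against the day 0 replicate 1 libraries alone and 0.75 without clone 5.

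The enzymes that charge tRNAs in the cytosol were nearly all lower: 20 were tested, 0 rose and 19 fell, with a median log2 change of -0.92. In the control, 0 rose and 0 fell (median -0.035), and 0 were higher and 17 lower relative to the control. Vars, the valine enzyme, stood at 494 and 413 CPM in clone 1 and 429 and 414 CPM in clone 5 at day 0, and at 142 and 158 CPM in clone 1 and 158 and 166 CPM in clone 5 at day 4. It fell by 1.51 ± 0.09 (SE, adjusted p = 3.59e-06). Lars, Yars and Cars, for leucine, tyrosine and cysteine, fell by 1.34 ± 0.10 (SE, adjusted p = 1.13e-05), 1.32 ± 0.08 (SE, adjusted p = 4.80e-06) and 1.15 ± 0.08 (SE, adjusted p = 6.82e-06).

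Breakdown of leucine, isoleucine and valine runs in mitochondria through a dehydrogenase that is a relative of OGDH. Of its genes, 21 were tested, 3 rose and 12 fell, with a median log2 change of -0.39. With shRen713 the counts were 0 and 0 and the median 2.5e-05, and net of the control 1 was higher and 7 lower. Bckdk, the kinase that turns this dehydrogenase off, stood at 107 and 107 CPM in clone 1 and 100.5 and 117 CPM in clone 5 at day 0, and at 53.5 and 50.3 CPM in clone 1 and 67.5 and 64.4 CPM in clone 5 at day 4. It fell by 0.89 ± 0.09 (SE, adjusted p = 4.60e-05). Pcca, of propionyl-CoA carboxylase at the end of the path, fell by 1.06 ± 0.15 (SE, adjusted p = 0.0003104), and the hydratase Echs1 by 0.58 ± 0.08 (SE, adjusted p = 0.000173). The 3 rises included those of Acadsb (1.11 ± 0.10), which oxidises the isoleucine branch, and Bcat2 (0.32 ± 0.08), the mitochondrial transaminase, with 11.5% of its windows shared. The call of Bcat2 was lost without clone 1 (0.28, adjusted p = 0.0927). Among genes of glutamate, glutamine, proline and aspartate, 23 were tested, 1 rose and 12 fell, with a median log2 change of -0.30. For the control hairpin, 0 rose and 0 fell, with a median of -0.081, while 0 were higher and 10 lower once the control was subtracted. Gpt2, a mitochondrial transaminase that makes 2-oxoglutarate from glutamate, stood at 34.7 and 31.8 CPM in clone 1 and 45.1 and 40.2 CPM in clone 5 at day 0, and at 11.9 and 12.4 CPM in clone 1 and 14.97 and 13.6 CPM in clone 5 at day 4. It fell by 1.51 ± 0.10 (SE, adjusted p = 4.90e-06). The aspartate and glutamate carrier Slc25a12 fell by 0.87 ± 0.07 (SE, adjusted p = 1.42e-05), and the single rise was that of Slc25a11 (0.38 ± 0.07), the carrier that exchanges 2-oxoglutarate for malate.

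Genes of maturing neutrophils, with the stefins, had the highest medians of all lists. Of the neutrophil list, 38 were tested, 36 rose and 0 fell, with a median log2 change of 2.94, with medians of 3.07 in clone 1 and 2.498 in clone 5. Under shRen713, 3 rose and 0 fell, and the median was 0.012, and 31 were higher and 0 lower relative to the control. S100a9, a calcium-binding protein that fills the neutrophil cytosol, was the most abundant gene at day 4, with 1.55% of all counts, and stood at 788 and 1497 CPM in clone 1 and 423 and 514 CPM in clone 5 at day 0, and at 23776 and 22961 CPM in clone 1 and 9761 and 8941 CPM in clone 5 at day 4. The rise was 4.42 ± 0.20 (SE, adjusted p = 1.40e-06), and clone 1 ended higher. Lyz2, lysozyme, stood at 785 and 533 CPM in clone 1 and 1298 and 979 CPM in clone 5 at day 0, and at 9450.5 and 8972 CPM in clone 1 and 10571 and 9743 CPM in clone 5 at day 4. It rose by 3.45 ± 0.21 (SE, adjusted p = 5.31e-06). Olfm4, a granule glycoprotein, stood at 157 and 322 CPM in clone 1 and 181 and 208 CPM in clone 5 at day 0, and at 7549 and 7133 CPM in clone 1 and 5421 and 5130.2 CPM in clone 5 at day 4. It rose by 4.94 ± 0.17 (SE, adjusted p = 3.79e-07) to 0.6005% of the counts. Chil3, a chitinase-like secreted protein, rose by 4.14 ± 0.09 (SE, adjusted p = 3.11e-08) from 12.4 to 140.04 CPM at day 0 and 250.2 to 1766 CPM at day 4, with clone 1 the higher clone on both days and 13.3% of its windows shared. Dgat2, an enzyme of triglyceride storage, and Ltb4r1, the leukotriene B4 receptor, rose by 2.96 ± 0.11 (SE, adjusted p = 6.77e-07) and 2.28 ± 0.09 (SE, adjusted p = 8.39e-07).

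Stefins are small inhibitors of cathepsins that are plentiful in neutrophils. Of stefins and cystatins, 9 were tested, 7 rose and 1 fell, with a median log2 change of 3.88. Control clones gave 0 rises, 0 falls and a median of -0.10, and net of the control 7 were higher and 1 lower. BC117090 stood at 0.433 and 1.49 CPM in clone 1 and 0.135 and 0.429 CPM in clone 5 at day 0, and at 91.3 and 92.5 CPM in clone 1 and 43.5 and 40.2 CPM in clone 5 at day 4, close to absent at day 0. It rose by 6.94 ± 0.20 (SE, adjusted p = 1.73e-07). Stfa2l1 stood at 23.9 and 52.6 CPM in clone 1 and 30.1 and 38.3 CPM in clone 5 at day 0, and at 2469.7 and 2281 CPM in clone 1 and 1661 and 1552 CPM in clone 5 at day 4. It rose by 5.86 ± 0.17 (SE, adjusted p = 2.84e-07). BC100530 rose by 3.88 ± 0.17 (SE, adjusted p = 1.24e-06) to 0.532% of the counts, and Stfa2 and Stfa3 by 6.54 ± 0.34 (SE, adjusted p = 3.46e-05) and 5.97 ± 0.51 (SE, adjusted p = 0.000402). The 1 member that fell was Cst7, an inhibitor of lysosomal cathepsins, by 0.95 ± 0.17 (SE, adjusted p = 0.00263). These genes lie close together as near copies: 35.1% of the 76-base windows of BC100530, 20.2% of those of BC117090 and 5.56% of those of Stfa2 occur in other genes, so the split of counts among them is uncertain. The change of Cst7 was -0.57 without clone 1.

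The 15 genes with the largest rises, among genes of at least 5 CPM whose days did not overlap, included 4 stefins and several secreted and surface proteins. Tgm2, a transglutaminase, stood at 1.08 and 0 CPM in clone 1 and 1.35 and 0.107 CPM in clone 5 at day 0, and at 150.1 and 163 CPM in clone 1 and 90.6 and 92.03 CPM in clone 5 at day 4. It went from 31 counts in all at day 0 to 5262 at day 4 (7.51 ± 0.16 (SE, adjusted p = 3.11e-08)), and rose in the control too, by 1.31. Thbs1, just outside these 15 and a secreted matrix protein of platelets and monocytes, stood at 109 and 27.4 CPM in clone 1 and 312 and 133 CPM in clone 5 at day 0, and at 7645 and 8575 CPM in clone 1 and 6362 and 7429 CPM in clone 5 at day 4. It rose by 5.81 ± 0.44 (SE, adjusted p = 0.000145) and was the fifth gene by share at day 4, with 0.715% of the counts. Mmp9, a gelatinase of neutrophil granules, stood at 0.9199 and 5.496 CPM in clone 1 and 1.08 and 2.04 CPM in clone 5 at day 0, and at 369 and 443 CPM in clone 1 and 45.4 and 51.7 CPM in clone 5 at day 4. It rose by 6.78 ± 0.84 (SE, adjusted p = 0.00204), and at day 4 both libraries of clone 1 lay far above those of clone 5. Igf1, a growth factor, stood at 0 and 0 CPM in clone 1 and 0.5403 and 0.322 CPM in clone 5 at day 0, and at 1.79 and 0.865 CPM in clone 1 and 36.3 and 36.8 CPM in clone 5 at day 4. It rose by 6.48 ± 0.52 (SE, adjusted p = 2.57e-05), and here clone 5 was the higher one.

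Retnlg, a resistin-like protein, and Fpr2, a receptor for formylated peptides, went from 6 to 1260 and from 8 to 579 counts in all. Their changes were 8.04 ± 0.46 (SE, adjusted p = 3.51e-06) and 6.26 ± 0.57 (SE, adjusted p = 3.44e-05), with clone 1 higher at day 4 in each. Clec4b2, a lectin receptor, and Slfn1 of the schlafen family rose by 6.09 ± 0.36 (SE, adjusted p = 3.82e-06) and 5.95 ± 0.30 (SE, adjusted p = 1.81e-06). Ankrd22 and Pald1 rose by 6.77 ± 0.51 (SE, adjusted p = 1.01e-05) and 6.21 ± 0.50 (SE, adjusted p = 1.57e-05). Of these, 41.3% of the transcript windows of Ankrd22, 20.6% of Fpr2 and 16.7% of Tgm2 occur in other genes. Relative to the control, Mmp9 was at 6.75 (adjusted p = 0.0634) and Ankrd22 at 6.04 (adjusted p = 0.118). The change of Fpr2 was 11.19 against the day 0 replicate 1 libraries alone and 4.12 without clone 1. The change of Pald1 was 4.13 without clone 1.

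Proteins of primary granules, which are made at the promyelocyte stage, did not rise with the later neutrophil genes. Of this list, 14 were tested, 3 rose and 6 fell, with a median log2 change of 0.054. Induction of the control hairpin gave 3 and 0, with a median of 0.14, while 3 were higher and 5 lower once the control was subtracted. Elane, neutrophil elastase, stood at 1856 and 1718 CPM in clone 1 and 1227 and 1051 CPM in clone 5 at day 0, and at 485 and 539 CPM in clone 1 and 468 and 469 CPM in clone 5 at day 4. It fell by 1.54 ± 0.16 (SE, adjusted p = 6.96e-05). Mpo, myeloperoxidase, stood at 3845 and 3131 CPM in clone 1 and 1165 and 777 CPM in clone 5 at day 0, and at 472 and 645 CPM in clone 1 and 325 and 390.2 CPM in clone 5 at day 4, and so differed between the clones before induction. It fell by 2.05 ± 0.27 (SE, adjusted p = 0.000598), whereas it rose by 1.39 in the control, a difference of -3.44 ± 0.37 (SE, adjusted p = 0.000844). The 3 rises were those of Gfi1 (1.61 ± 0.09), a transcriptional repressor of the granulocyte lineage, Rab27a (0.74 ± 0.10), which docks granules, and Srgn (0.49 ± 0.10), the proteoglycan that packs them; Gfi1 rose in the control by 0.85. The call of Mpo was lost without the clone block (-2.304, adjusted p = 0.133). The call of Srgn was lost without clone 5 (0.31, adjusted p = 0.0529). For Mpo the call against the control was lost without the clone block (-3.68, adjusted p = 0.149).

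Monocyte and macrophage genes rose in majority, with a few of the early monocyte genes lower. Of this list, 31 were tested, 21 rose and 4 fell, with a median log2 change of 1.44. The control had 1 rise and 2 falls (median -0.048), and 17 were higher and 0 lower relative to the control. Fcgr4, an activating Fc receptor, stood at 12.8 and 13.6 CPM in clone 1 and 13.5 and 10.9 CPM in clone 5 at day 0, and at 194 and 183 CPM in clone 1 and 184 and 165 CPM in clone 5 at day 4. It rose by 3.85 ± 0.15 (SE, adjusted p = 9.92e-07). Ccl6, a chemokine, and Fcgr2b, the inhibitory Fc receptor, rose by 3.81 ± 0.10 (SE, adjusted p = 1.03e-07) and 2.12 ± 0.08 (SE, adjusted p = 7.82e-07). Gpnmb, a lysosomal glycoprotein of macrophages, stood at 3.03 and 1.03 CPM in clone 1 and 34.2 and 12.4 CPM in clone 5 at day 0, and at 80.5 and 81.3 CPM in clone 1 and 912 and 952 CPM in clone 5 at day 4. Clone 5 was higher on both days, and the rise of 5.29 ± 0.15 (SE, adjusted p = 1.66e-07) was of like size in both. The 4 that fell were the monocyte lineage factors Irf8 (-2.15 ± 0.40) and Klf4 (-2.09 ± 0.70), Ms4a6c (-1.64 ± 0.40), a membrane protein of monocytes, and Apoe (-0.74 ± 0.16), an apolipoprotein. None of the 4 passed relative to the control, with Irf8 at -1.95 (adjusted p = 0.0522), Klf4 at -1.42 (adjusted p = 0.393), Ms4a6c at -1.91 (adjusted p = 0.0506) and Apoe, whose control change was -0.67 (adjusted p = 0.0395), at -0.066 (adjusted p = 0.847). The call of Irf8 was lost without clone 1 (-1.895, adjusted p = 0.0501). The call of Klf4 was lost in DESeq2, without the clone block, against the day 0 replicate 2 libraries alone, without day 0 replicate 1 of clone 1, without day 4 replicate 2 of clone 1 and without clone 1, with values from -2.28 to -1.32 and adjusted p of up to 0.252. Its change was -3.41 without clone 5. The call of Ms4a6c was lost without the clone block (-1.54, adjusted p = 0.157). Its change was -0.88 without clone 1 and -2.51 without clone 5. The call of Apoe was lost against the day 0 replicate 2 libraries alone (-0.25, adjusted p = 0.265) and without day 0 replicate 1 of clone 1 (-0.44, adjusted p = 0.0902). 53.3% of the transcript windows of Ms4a6c occur in other genes. Without the clone block 11 members of the list rose.

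Transcription factors of the myeloid lineage rose more often than they fell. Of these, 17 were tested, 9 rose and 4 fell, with a median log2 change of 0.43 and a highest of 4.61. The rises named below are among those of smallest p and do not include the highest. In the control, 4 rose and 1 fell (median -0.054), and net of the control 6 were higher and 0 lower. Cebpe, which acts at the stage of secondary granules, stood at 86.2 and 91.5 CPM in clone 1 and 59.4 and 63.7 CPM in clone 5 at day 0, and at 285 and 313 CPM in clone 1 and 241 and 246 CPM in clone 5 at day 4. It rose by 1.87 ± 0.08 (SE, adjusted p = 1.24e-06), and Cebpb and Cebpd of the same family by 1.53 ± 0.10 (SE, adjusted p = 4.98e-06) and 1.47 ± 0.10 (SE, adjusted p = 7.00e-06). Cebpa, the factor of the entry to the granulocyte lineage, and Gata2, of early progenitors, fell by 0.38 ± 0.13 (SE, adjusted p = 0.0324) and 0.70 ± 0.10 (SE, adjusted p = 0.000388); the others that fell were Irf8 and Klf4. The control changes were -0.16 for Cebpa and -0.69 (adjusted p = 0.00881) for Gata2, with differences of -0.22 (adjusted p = 0.393) and -0.010 (adjusted p = 0.9702). 16.7% of the windows of Cebpb and 13.3% of Cebpd are shared with other genes. The call of Cebpa was lost with upper quartile scaling, among genes of at least 5 CPM, without the clone block, against the day 0 replicate 2 libraries alone, without day 0 replicate 2 of clone 5 and without clone 1, with values from -0.35 to -0.13 and adjusted p of up to 0.651. Its change was -0.67 without clone 5. The call of Gata2 was lost without the clone block (-0.68, adjusted p = 0.0529).

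MLL fusions keep the HOXA cluster and MEIS1 active, and this programme did not move as a whole. Of its genes, 28 were tested, 7 rose and 11 fell, with a median log2 change of -0.054. With shRen713 the counts were 2 and 3 and the median -0.13, while 6 were higher and 9 lower once the control was subtracted. Hoxa9, the homeobox gene of the programme, stood at 222 and 192 CPM in clone 1 and 108 and 102 CPM in clone 5 at day 0, and at 203 and 216 CPM in clone 1 and 126 and 122 CPM in clone 5 at day 4. Its days overlapped, with a change of 0.12 ± 0.09 (SE, adjusted p = 0.316), which passed against the day 0 replicate 2 libraries alone (0.25, adjusted p = 0.0344), and Meis1, its partner, was at 0.031 ± 0.09 (SE, adjusted p = 0.781), with 12.3% of its windows shared. Flt3, a receptor kinase of progenitors, had the largest fall of all genes named by size and stood at 32.95 and 45.001 CPM in clone 1 and 2.43 and 5.14 CPM in clone 5 at day 0, and at 0.256 and 0.519 CPM in clone 1 and 0.133 and 0.329 CPM in clone 5 at day 4. Clone 1 began far above clone 5, and the change was -5.81 ± 0.40 (SE, adjusted p = 6.84e-06). Hmgb3, a chromatin protein of early progenitors, fell by 1.98 ± 0.11 (SE, adjusted p = 3.39e-06), and Psip1, which tethers MLL to chromatin, by 0.93 ± 0.07 (SE, adjusted p = 1.33e-05). Igf2bp2, an RNA-binding protein, rose by 2.03 ± 0.16 (SE, adjusted p = 1.30e-05). 19.4% of the windows of Hmgb3 are shared. Without the clone block 7 members fell. The call of Igf2bp2 was lost without the clone block (2.02, adjusted p = 0.142).

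Receptors for cytokines and growth factors rose more often than they fell. Of these, 19 were tested, 11 rose and 3 fell, with a median log2 change of 0.52. For the control hairpin, 2 rose and 0 fell, with a median of 0.044, and 9 were higher and 3 lower relative to the control. Kit, the stem cell factor receptor, stood at 189 and 161 CPM in clone 1 and 167 and 170.1 CPM in clone 5 at day 0, and at 80.5 and 82.4 CPM in clone 1 and 82.5 and 90.7 CPM in clone 5 at day 4. The 8 values fall into separate ranges by day, with a fall of 1.06 ± 0.12 (SE, adjusted p = 8.87e-05). Besides Flt3 and Kit the third that fell was Il6ra, the interleukin 6 receptor, by 0.79 ± 0.15 (SE, adjusted p = 0.00196). Csf2ra and Csf2rb, the chains of the GM-CSF receptor, rose by 1.22 ± 0.09 (SE, adjusted p = 1.13e-05) and 1.06 ± 0.10 (SE, adjusted p = 2.65e-05), and Tnfrsf1b, a TNF receptor, by 2.11 ± 0.08 (SE, adjusted p = 8.83e-07). Cd34, a surface protein of progenitors, fell by 1.06 ± 0.16 (SE, adjusted p = 0.000636). The call of Kit was lost without the clone block (-1.06, adjusted p = 0.139). The change of Il6ra was -0.48 without clone 1.

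The other genes with the largest falls belong to several pathways. Serpinf1, a secreted serpin, and P2rx3, an ATP-gated channel, fell by 3.75 ± 0.27 (SE, adjusted p = 8.15e-06) and 3.56 ± 0.21 (SE, adjusted p = 3.64e-06). Wnt10b, a Wnt ligand, stood at 23.6 and 28.6 CPM in clone 1 and 12.4 and 16.4 CPM in clone 5 at day 0, and at 0.385 and 1.21 CPM in clone 1 and 2.99 and 2.85 CPM in clone 5 at day 4. It fell by 3.34 ± 0.50 (SE, adjusted p = 0.0013001), further in clone 1. Ighm, the immunoglobulin heavy chain transcribed at low level in some myeloid progenitors, fell by 3.28 ± 0.48 (SE, adjusted p = 0.00371). B3gnt5, which extends glycolipids, and Gfi1b, a repressor of the erythroid and megakaryocyte lineages, fell by 3.25 ± 0.26 (SE, adjusted p = 1.39e-05) and 2.66 ± 0.36 (SE, adjusted p = 0.000642). Prdx4, a peroxiredoxin of the endoplasmic reticulum, and Apba1, an adaptor protein, fell by 2.57 ± 0.61 (SE, adjusted p = 0.0176) and 2.68 ± 0.23 (SE, adjusted p = 2.03e-05). Wnt10b changed by -1.53 (adjusted p = 0.132) in the control, and relative to it Wnt10b was at -1.81 (adjusted p = 0.0982) and Prdx4 at -2.21 (adjusted p = 0.104). The call of Prdx4 was lost without the clone block (-2.46, adjusted p = 0.0544) and without clone 1 (-1.92, adjusted p = 0.0642). The call of Apba1 was lost without the clone block (-2.64, adjusted p = 0.0534).

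Genes of DNA replication and of mitosis fell almost throughout. Of DNA replication genes, 44 were tested, 0 rose and 42 fell, with a median log2 change of -1.15, with medians of -1.18 in clone 1 and -1.08 in clone 5. Under shRen713, 1 rose and 3 fell, and the median was -0.072, and net of the control 0 were higher and 42 lower. Of mitosis genes, 37 were tested, 0 rose and 36 fell, with a median log2 change of -0.78, with medians of -0.79 in clone 1 and -0.84 in clone 5. Control clones gave 2 rises, 0 falls and a median of 0.12, while 0 were higher and 36 lower once the control was subtracted. The E2F motif TTTNGCGC stood in the 250 bases before the start of 17.1% of the 35 fallen replication genes with a promoter, against 2.42% of tested genes, and the CHR motif TTTGAA in 35.5% of the 31 fallen mitosis genes, against 13%, both strands searched. All tested members of the lists gave like shares, of 16.7% and 35.5%, and these genes are known for such motifs. Windows of the genes with a match are shown for 2 of each, with the motif in capitals; Pola1 holds the reverse complement.
Pola1 (chrX:93632244-93632333, minus strand): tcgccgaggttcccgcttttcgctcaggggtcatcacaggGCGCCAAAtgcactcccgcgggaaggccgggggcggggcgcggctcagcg
Uhrf1 (chr17:56304088-56304177, plus strand): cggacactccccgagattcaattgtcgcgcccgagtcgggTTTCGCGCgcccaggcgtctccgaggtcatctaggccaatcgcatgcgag
Cdc20 (chr4:118437344-118437433, minus strand): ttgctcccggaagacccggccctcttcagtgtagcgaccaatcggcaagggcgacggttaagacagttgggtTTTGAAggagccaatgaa
Espl1 (chr15:102296203-102296292, plus strand): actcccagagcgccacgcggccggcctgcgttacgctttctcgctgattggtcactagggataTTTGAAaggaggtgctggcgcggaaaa
Pola1, the catalytic subunit of DNA polymerase alpha, stood at 135 and 119 CPM in clone 1 and 128 and 122 CPM in clone 5 at day 0, and at 46.8 and 38.6 CPM in clone 1 and 45.3 and 47.002 CPM in clone 5 at day 4. It fell by 1.54 ± 0.09 (SE, adjusted p = 3.59e-06), and its change in the control was -0.38. Mcm2, of the replicative helicase, stood at 462 and 443 CPM in clone 1 and 414 and 421 CPM in clone 5 at day 0, and at 159.7 and 171 CPM in clone 1 and 174 and 172 CPM in clone 5 at day 4. It fell by 1.36 ± 0.08 (SE, adjusted p = 3.82e-06), the ligase Lig1 by 1.24 ± 0.08 (SE, adjusted p = 4.36e-06) and Dut, which removes dUTP, by 1.37 ± 0.08 (SE, adjusted p = 4.36e-06). Uhrf1, which guides DNA methylation to new strands, fell by 1.34 ± 0.09 (SE, adjusted p = 5.26e-06), with 10.4% of its windows shared.

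Among mitosis genes, Cdc20, an activator of the anaphase-promoting complex, stood at 129 and 123 CPM in clone 1 and 120.5 and 125 CPM in clone 5 at day 0, and at 46.4 and 48.2 CPM in clone 1 and 51.4 and 50.1 CPM in clone 5 at day 4. It fell by 1.35 ± 0.08 (SE, adjusted p = 3.59e-06), and all day 4 libraries were lower. Ccna2 and Ccnb1, the cyclins A2 and B1, fell by 1.25 ± 0.07 (SE, adjusted p = 3.87e-06) and 1.29 ± 0.07 (SE, adjusted p = 3.59e-06), Cenpf, a kinetochore protein, by 1.22 ± 0.07 (SE, adjusted p = 3.87e-06), and Espl1, separase, by 1.13 ± 0.07 (SE, adjusted p = 5.47e-06). 12.1% and 32.9% of the windows of the 2 cyclins are shared with other genes. The regulators of G1 moved in both directions: 16 were tested, 6 rose and 5 fell, with a median log2 change of 0.081. Induction of the control hairpin gave 0 and 0, with a median of -0.011, and 5 were higher and 5 lower relative to the control. Ccnd3, the cyclin D of mature myeloid cells, stood at 225 and 252 CPM in clone 1 and 179.5 and 206 CPM in clone 5 at day 0, and at 486 and 522 CPM in clone 1 and 390.05 and 418 CPM in clone 5 at day 4. It rose by 1.08 ± 0.07 (SE, adjusted p = 6.44e-06). The CDK inhibitors Cdkn1b and Cdkn2b rose by 0.93 ± 0.10 (SE, adjusted p = 6.70e-05) and 2.93 ± 0.32 (SE, adjusted p = 7.46e-05). The 5 that fell were the inhibitor Cdkn2c (-1.296 ± 0.17), the kinases Cdk4 (-0.95 ± 0.11) and Cdk6 (-0.63 ± 0.10), E2f4 (-0.86 ± 0.10) and the pocket protein Rbl1 (-0.72 ± 0.11), with 22.9% of the windows of Cdk4 shared. The call of Cdkn2c was lost without the clone block (-1.25, adjusted p = 0.606).

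Genes for the making of nucleotides and ribosomes fell in majority as well. Of genes of purine and pyrimidine synthesis, 29 were tested, 2 rose and 24 fell, with a median log2 change of -1.03. The control had 1 rise and 1 fall (median -0.11), and net of the control 1 was higher and 21 lower. Tk1, thymidine kinase, stood at 137 and 138 CPM in clone 1 and 121 and 127 CPM in clone 5 at day 0, and at 50.5 and 50.9 CPM in clone 1 and 49.7 and 48.97 CPM in clone 5 at day 4. It fell by 1.38 ± 0.07 (SE, adjusted p = 2.64e-06), Rrm2, of ribonucleotide reductase, by 1.23 ± 0.07 (SE, adjusted p = 3.95e-06), and Pfas, of purine synthesis, by 1.16 ± 0.07 (SE, adjusted p = 4.79e-06). The 2 that rose were Impdh1 (0.78 ± 0.14), of guanine nucleotide synthesis, and Samhd1 (0.70 ± 0.08), which breaks down dNTPs. Impdh1 rose in the control by 0.71 (adjusted p = 0.0186), and its difference was 0.066 (adjusted p = 0.822). Of ribosome biogenesis genes, 38 were tested, 0 rose and 37 fell, with a median log2 change of -0.93. In the control, 0 rose and 0 fell (median -0.19), while 0 were higher and 34 lower once the control was subtracted. Polr1b, of RNA polymerase I, stood at 113 and 94.2 CPM in clone 1 and 122 and 98.8 CPM in clone 5 at day 0, and at 39.5 and 37.3 CPM in clone 1 and 41.3 and 44.4 CPM in clone 5 at day 4. It fell by 1.43 ± 0.08 (SE, adjusted p = 3.82e-06), and Gnl3, Utp20 and Nop58, of the nucleolus, by 1.46 ± 0.10 (SE, adjusted p = 6.00e-06), 1.395 ± 0.08 (SE, adjusted p = 3.95e-06) and 1.24 ± 0.09 (SE, adjusted p = 6.82e-06). The E-box CACGTG stood in 2 of the 32 fallen ribosome biogenesis genes with a promoter (6.25%). The share was 9.82% of tested genes and 6.86% of all genes with a promoter. With so few matches no difference between these shares was tested. Ribosomal protein genes fell less: 79 were tested, 0 rose and 60 fell, with a median log2 change of -0.42, and 13 fell without clone 1. With shRen713 the counts were 0 and 0 and the median -0.13, and 0 were higher and 11 lower relative to the control. Rpl15 was at -0.56 ± 0.09 (SE, adjusted p = 0.000703). Rpl10a, Rpl38 and Rpl7a also fell, by 0.82 ± 0.11 (SE, adjusted p = 0.000191), 0.67 ± 0.09 (SE, adjusted p = 0.000305) and 0.64 ± 0.10 (SE, adjusted p = 0.000495), but 22.9% to 77.2% of the windows of these and of Rpl15 occur in other genes, as many ribosomal protein genes have pseudogenes. The call of Impdh1 was lost without the clone block (0.70, adjusted p = 0.495).

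Genes of glucose uptake and glycolysis rose more often than they fell. Of these, 25 were tested, 16 rose and 4 fell, with a median log2 change of 0.44. For the control hairpin, 1 rose and 1 fell, with a median of -0.065, and net of the control 15 were higher and 2 lower. Slc2a3, a glucose transporter, stood at 4.87 and 15.1 CPM in clone 1 and 0.946 and 1.07 CPM in clone 5 at day 0, and at 273 and 285 CPM in clone 1 and 24.02 and 21.5 CPM in clone 5 at day 4. It rose by 4.98 ± 0.22 (SE, adjusted p = 1.50e-06). Slc16a3, the lactate exporter, stood at 42.2 and 35.2 CPM in clone 1 and 48.5 and 30.7 CPM in clone 5 at day 0, and at 239 and 270.1 CPM in clone 1 and 151 and 157 CPM in clone 5 at day 4. It rose by 2.35 ± 0.17 (SE, adjusted p = 2.44e-05), with clone 1 the higher at day 4. Pfkfb4 and Pfkfb3, which set the level of a regulatory fructose bisphosphate that activates glycolysis, rose by 1.37 ± 0.09 (SE, adjusted p = 6.81e-06) and 0.83 ± 0.07 (SE, adjusted p = 1.69e-05). The 4 that fell were the monocarboxylate carrier Slc16a1 (-0.98 ± 0.10), Pfkfb1 (-0.80 ± 0.17), Txnip (-0.62 ± 0.09), which restrains glucose uptake, and the phosphofructokinase Pfkm (-0.38 ± 0.10), with 16.3% of the windows of Txnip shared. Txnip changed by -1.12 (adjusted p = 0.00215) in the control and was thus higher relative to it, by 0.50 (adjusted p = 0.0182), while Pfkm was at -0.36 (adjusted p = 0.0894) relative to the control. Without day 0 replicate 2 of clone 5, 10 members rose. The call of Pfkfb1 was lost without clone 1 (-0.61, adjusted p = 0.0566). The call of Txnip was lost against the day 0 replicate 2 libraries alone (-0.19, adjusted p = 0.0834). Its change was -0.41 without day 0 replicate 1 of clone 1. The call of Pfkm was lost without the clone block (-0.36, adjusted p = 0.112) and without clone 1 (-0.26, adjusted p = 0.148).

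Genes of the hypoxia response, a list that holds hypoxia-inducible factor and its regulators beside its known targets, mostly rose, and none fell. Of these, 18 were tested, 14 rose and 0 fell, with a median log2 change of 0.68. Under shRen713, 1 rose and 0 fell, and the median was 0.028, while 10 were higher and 0 lower once the control was subtracted. Vegfa, the vascular growth factor, stood at 52.5 and 50.04 CPM in clone 1 and 59.7 and 47.3 CPM in clone 5 at day 0, and at 131 and 126 CPM in clone 1 and 123 and 127 CPM in clone 5 at day 4. It rose by 1.27 ± 0.08 (SE, adjusted p = 4.65e-06), and in the control by 0.58. Ndrg1, a stress-induced protein, Ankrd37, a small ankyrin protein, and Bnip3, a mitophagy receptor, rose by 1.28 ± 0.12 (SE, adjusted p = 3.20e-05), 2.79 ± 0.28 (SE, adjusted p = 4.76e-05) and 1.65 ± 0.15 (SE, adjusted p = 2.91e-05), with 43.2% of the windows of Bnip3 shared. Of enzymes that use 2-oxoglutarate, 41 were tested, 15 rose and 11 fell, with a median log2 change of 0.043. Control clones gave 1 rise, 2 falls and a median of -0.0062, and 8 were higher and 6 lower relative to the control. Kdm6b, which demethylates H3K27, stood at 60.1 and 44.9 CPM in clone 1 and 45.5 and 40.6 CPM in clone 5 at day 0, and at 143 and 172 CPM in clone 1 and 117 and 122 CPM in clone 5 at day 4. It rose by 1.51 ± 0.08 (SE, adjusted p = 1.90e-06) and Kdm7a, another histone demethylase, by 1.46 ± 0.10 (SE, adjusted p = 6.26e-06). Alkbh1 and Fto, which demethylate nucleic acids, fell by 1.09 ± 0.07 (SE, adjusted p = 6.31e-06) and 0.75 ± 0.08 (SE, adjusted p = 6.19e-05). P4ha2, a collagen prolyl hydroxylase in both lists, had 0 counts at day 0 and 21 at day 4, at least 6.72-fold higher when the day 0 group is set to 3 counts. Without clone 1, 9 hypoxia genes and 9 of the enzymes rose; without the clone block these were 8 and 9.

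Immediate early genes, which growth signals switch on within minutes, rose more often than they fell with shOgdh346, while the calls in the control were all falls. Of these, 23 were tested, 12 rose and 4 fell, with a median log2 change of 0.72. Induction of the control hairpin gave 0 and 5, with a median of -0.62, and net of the control 14 were higher and 1 lower. Ier3, an early response gene, stood at 9.09 and 8.47 CPM in clone 1 and 7.97 and 8.57 CPM in clone 5 at day 0, and at 21.9 and 28.9 CPM in clone 1 and 18.8 and 20.5 CPM in clone 5 at day 4. It rose by 1.39 ± 0.18 (SE, adjusted p = 0.000202), and Maff, a small MAF factor, by 1.41 ± 0.18 (SE, adjusted p = 0.000185). Fosb, an AP-1 subunit, stood at 22.9 and 8.59 CPM in clone 1 and 18.2 and 9.97 CPM in clone 5 at day 0, and at 2.18 and 2.34 CPM in clone 1 and 3.06 and 3.396 CPM in clone 5 at day 4. It fell by 2.53 ± 0.31 (SE, adjusted p = 0.000169), less than the control's change of -4.64 (adjusted p = 0.00314), so that the difference between the hairpins was 2.11 ± 0.64 (SE, adjusted p = 0.0327). Klf10 also fell (-1.08 ± 0.13), as it did in the control (-1.25 (adjusted p = 0.00288)). The others that fell were Nr4a2, an orphan nuclear receptor, by 1.09 ± 0.29 (SE, adjusted p = 0.00945), and Klf4, given above. Without clone 1, and likewise without the clone block, 7 members rose. The call of Klf10 was lost with the 24 libraries as units, with the replicate block, with the 8 shOgdh346 libraries alone, against the day 0 replicate 2 libraries alone and without day 0 replicate 1 of clone 5, with values from -1.005 to -0.030 and adjusted p of up to 0.875. Its change was -0.55 without day 0 replicate 1 of clone 1. The call of Nr4a2 was lost in DESeq2, against the day 0 replicate 2 libraries alone, without day 0 replicate 1 of clone 5 and without clone 1, with values from -1.06 to -0.57 and adjusted p of up to 0.209. For Fosb the call against the control was lost without the clone block, without day 0 replicate 2 of clone 1, without day 4 replicate 1 of shRen713 clone 7, without day 4 replicate 2 of shRen713 clone 7, without shRen713 clone 7 and without clone 5, with values from 0.72 to 2.22 and adjusted p of up to 0.517. Its difference from the control was 3.26 without shRen713 clone 2.

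Day 0 libraries differed in these genes. Measured against the day 0 replicate 1 libraries alone, 11 immediate early genes rose and 4 fell (median 0.60), and against the replicate 2 libraries 16 rose and 1 fell (median 1.11). Glycolysis moved likewise, with 11 rises and 4 falls (median 0.32) against replicate 1 and 18 and 3 (median 0.61) against replicate 2. For hypoxia genes the counts were 12 rises and 0 falls (median 0.54) and 14 and 1 (median 0.87), and for ribosomal proteins 59 falls (median -0.46) and 48 falls (median -0.30). The neutrophil list gave 36 rises and 0 falls against either. What separates the day 0 libraries is not given by the labels and was not tested.

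**Figure D4:**
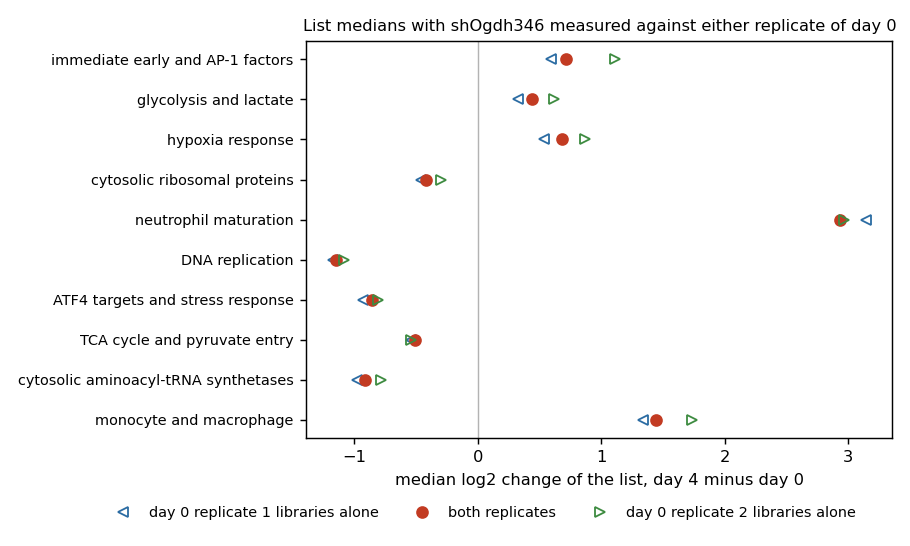
Median log2 change from day 0 to day 4 (horizontal axis) of 10 gene lists (vertical axis) with shOgdh346, measured against the day 0 replicate 1 libraries alone (left-pointing triangles), both day 0 replicates (filled circles) and the day 0 replicate 2 libraries alone (right-pointing triangles). Immediate early genes spread most, from 0.60 to 1.11, while each list keeps its side of 0.

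Genes that RAS and ERK signalling feeds back through also rose more often than they fell. Mutant NRAS is a part of every clone, and Nras, whose counts cannot separate the mutant from the normal allele, stood at 1181 and 935 CPM in clone 1 and 1281 and 1045 CPM in clone 5 at day 0, and at 1269.7 and 1304 CPM in clone 1 and 1101 and 1133 CPM in clone 5 at day 4. Its change was 0.089 ± 0.10 (SE, adjusted p = 0.4501), and it passed against the day 0 replicate 2 libraries alone (0.32, adjusted p = 0.0187). Of the feedback list, 14 were tested, 7 rose and 2 fell, with a median log2 change of 0.32. The control had 0 rises and 2 falls (median -0.25), while 8 were higher and 0 lower once the control was subtracted. Dusp6, a phosphatase of ERK, stood at 164 and 172 CPM in clone 1 and 144 and 181 CPM in clone 5 at day 0, and at 457 and 468 CPM in clone 1 and 384 and 390.2 CPM in clone 5 at day 4. It rose by 1.35 ± 0.13 (SE, adjusted p = 5.06e-05), Dusp5, another, by 1.05 ± 0.15 (SE, adjusted p = 0.000282), and Spred3 and Rasa2, which dampen RAS, by 1.498 ± 0.13 (SE, adjusted p = 2.26e-05) and 1.26 ± 0.09 (SE, adjusted p = 1.01e-05). The 2 that fell were Spry1 (-1.94 ± 0.36), a feedback inhibitor, and Etv4 (-0.54 ± 0.08), a factor of the PEA3 family. Spry1 changed by -1.46 (adjusted p = 0.157) and Etv4 by -0.41 (adjusted p = 0.023997) in the control, and the differences were -0.48 (adjusted p = 0.6499) and -0.14 (adjusted p = 0.392). 19.7% of the windows of Dusp5 and 20% of Spry1 are shared. Without the clone block, 4 members rose. The call of Spry1 was lost without the clone block (-1.96, adjusted p = 0.0878). Its change was -1.21 against the day 0 replicate 2 libraries alone.

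Most inflammatory mediators and their receptors rose. Of genes of NF-kB, interleukin 1 and Toll-like receptors, 30 were tested, 22 rose and 3 fell, with a median log2 change of 1.14. In the control, 1 rose and 0 fell (median -0.10), and 17 were higher and 3 lower relative to the control. Il1rn, the interleukin 1 receptor antagonist, stood at 1.24 and 2.18 CPM in clone 1 and 1.76 and 3.001 CPM in clone 5 at day 0, and at 186 and 173 CPM in clone 1 and 108 and 103 CPM in clone 5 at day 4. It rose by 6.23 ± 0.27 (SE, adjusted p = 4.79e-06). Il1b, the cytokine itself, stood at 0.0541 and 0.229 CPM in clone 1 and 0.2702 and 0.322 CPM in clone 5 at day 0, and at 17.2 and 18.7 CPM in clone 1 and 3.59 and 3.18 CPM in clone 5 at day 4, with most of it in clone 1. It rose by 5.87 ± 0.60 (SE, adjusted p = 7.65e-05). Nfkbia, the inhibitor of NF-kB that NF-kB induces, Tlr4, the receptor for lipopolysaccharide, and Irak3, a brake on its signal, rose by 1.38 ± 0.09 (SE, adjusted p = 6.20e-06), 1.698 ± 0.12 (SE, adjusted p = 7.39e-06) and 1.29 ± 0.10 (SE, adjusted p = 1.31e-05). The 3 that fell were Sod2 (-0.72 ± 0.09), the mitochondrial superoxide dismutase, Nfkb1 (-0.65 ± 0.07), an NF-kB subunit, and Casp1 (-0.38 ± 0.10), which cleaves pro-interleukin 1. The change of Il1b was 3.48 without clone 1. The call of Casp1 was lost without the clone block (-0.37, adjusted p = 0.199) and without clone 1 (-0.22, adjusted p = 0.132).

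Of interferon-stimulated genes, 20 were tested, 11 rose and 2 fell, with a median log2 change of 0.68. With shRen713 the counts were 2 and 0 and the median -0.16, and net of the control 4 were higher and 1 lower. Ddx58, the RNA sensor RIG-I, stood at 6.602 and 6.298 CPM in clone 1 and 4.998 and 5.04 CPM in clone 5 at day 0, and at 50.8 and 47.2 CPM in clone 1 and 44.5 and 44.2 CPM in clone 5 at day 4. It rose by 3.01 ± 0.20 (SE, adjusted p = 5.47e-06). Stat2, a factor of the interferon signal, rose by 0.67 ± 0.08 (SE, adjusted p = 0.000109), with a control change of 0.80 (adjusted p = 0.00273). Cxcl10, a chemokine, rose by 2.94 ± 0.51 (SE, adjusted p = 0.000966) from under 1 CPM in every day 0 library. The 2 that fell were the antiviral genes Mx1 (-1.56 ± 0.30) and Ifit2 (-0.74 ± 0.13). Mx1 changed by -1.01 (adjusted p = 0.175) in the control, a difference of -0.55 (adjusted p = 0.454). Among genes of at least 5 CPM 6 rose, and without clone 5 the count was 7. Genes of MHC class I presentation fell in majority: 13 were tested, 1 rose and 9 fell, with a median log2 change of -0.77. For the control hairpin, 0 rose and 0 fell, with a median of -0.17, while 1 was higher and 7 lower once the control was subtracted. Psmb8, an immunoproteasome subunit, stood at 187 and 177 CPM in clone 1 and 157 and 169 CPM in clone 5 at day 0, and at 56.8 and 61.4 CPM in clone 1 and 80.99 and 78.3 CPM in clone 5 at day 4. It fell by 1.33 ± 0.13 (SE, adjusted p = 5.68e-05), Psmb10 by 1.45 ± 0.16 (SE, adjusted p = 0.000132), Psme1 by 0.83 ± 0.09 (SE, adjusted p = 7.38e-05) and the peptide transporter Tap2 by 0.83 ± 0.10 (SE, adjusted p = 0.000107). The 1 member that rose was the class I molecule H2-D1 (0.26 ± 0.08). The call of Mx1 was lost without the clone block (-1.504, adjusted p = 0.127). The call of Ifit2 was lost without the clone block (-0.74, adjusted p = 0.0582). The call of H2-D1 was lost without the clone block, against the day 0 replicate 1 libraries alone, without day 0 replicate 2 of clone 1 and without clone 5, with values from 0.15 to 0.28 and adjusted p of up to 0.508. Its change was 0.45 against the day 0 replicate 2 libraries alone and 0.39 without day 0 replicate 1 of clone 1.

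Most lysosomal genes rose. Of these, 25 were tested, 16 rose and 1 fell, with a median log2 change of 0.59. Under shRen713, 2 rose and 1 fell, and the median was -0.037, and 14 were higher and 1 lower relative to the control. Neu1, a lysosomal sialidase, stood at 102 and 101 CPM in clone 1 and 121 and 122 CPM in clone 5 at day 0, and at 219 and 223 CPM in clone 1 and 260.01 and 240.1 CPM in clone 5 at day 4. It rose by 1.09 ± 0.07 (SE, adjusted p = 6.10e-06), Lamp2, of the lysosomal membrane, by 1.03 ± 0.08 (SE, adjusted p = 1.29e-05), Wipi1, of autophagosomes, by 1.12 ± 0.10 (SE, adjusted p = 3.11e-05), and Sqstm1, an autophagy receptor, by 0.86 ± 0.08 (SE, adjusted p = 2.86e-05). The 1 member that fell was Tfec, a factor of the TFEB family, by 0.34 ± 0.08 (SE, adjusted p = 0.00607). 17.1% of the windows of Sqstm1 are shared. The call of Tfec was lost with the 24 libraries as units, against the day 0 replicate 1 libraries alone, without day 0 replicate 2 of clone 5 and without clone 1, with values from -0.33 to -0.14 and adjusted p of up to 0.186. Its change was -0.53 against the day 0 replicate 2 libraries alone.

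Cholesterol genes fell more often than they rose, while both exporters of the list rose. Of these, 25 were tested, 3 rose and 11 fell, with a median log2 change of -0.25. Control clones gave 0 rises, 0 falls and a median of 0.054, and net of the control 2 were higher and 10 lower. The exporters Abca1 and Abcg1 rose by 5.13 ± 0.44 (SE, adjusted p = 3.75e-05) and 2.74 ± 0.21 (SE, adjusted p = 1.08e-05). Per library, Abca1 stood at 0.0541 and 0 CPM in clone 1 and 0.5403 and 0.107 CPM in clone 5 at day 0, and at 1.03 and 0.692 CPM in clone 1 and 11.2 and 13.1 CPM in clone 5 at day 4, with far the higher level in clone 5 at day 4. Sc5d, an enzyme near the end of synthesis, rose by 0.67 ± 0.22 (SE, adjusted p = 0.0384). Insig1, a sterol sensor, fell by 1.404 ± 0.14 (SE, adjusted p = 6.10e-05). Relative to the control Sc5d was at 0.30 (adjusted p = 0.4904). Without clone 1, 2 genes of the list rose and 18 fell, and without clone 5, 7 rose and 9 fell, with medians of -0.47 and -0.042. The call of Sc5d was lost without the clone block, against the day 0 replicate 1 libraries alone, without day 0 replicate 1 of clone 1, without day 0 replicate 2 of clone 5 and without clone 1, with values from 0.14 to 0.69 and adjusted p of up to 0.286. Its change was 1.17 without clone 5. The change of Insig1 was -0.80 against the day 0 replicate 2 libraries alone. Of heme and iron genes, 18 were tested, 7 rose and 6 fell, with a median log2 change of -0.062. Induction of the control hairpin gave 1 and 1, with a median of -0.028, while 5 were higher and 5 lower once the control was subtracted. Hmox1, which degrades heme, stood at 25.3 and 22.1 CPM in clone 1 and 48.4 and 40.9 CPM in clone 5 at day 0, and at 112 and 106 CPM in clone 1 and 190.00 and 182 CPM in clone 5 at day 4. It rose by 2.12 ± 0.08 (SE, adjusted p = 6.20e-07), whereas the control changed by -0.63 (adjusted p = 0.00563). Slc40a1, the iron exporter ferroportin, and Alas1, the first enzyme of heme synthesis, rose by 2.79 ± 0.15 (SE, adjusted p = 4.24e-06) and 1.45 ± 0.11 (SE, adjusted p = 9.62e-06).

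Of p53 targets, 20 were tested, 11 rose and 2 fell, with a median log2 change of 0.72, and 7 rose without clone 1. The control had 0 rises and 1 fall (median -0.032), and 6 were higher and 1 lower relative to the control. Trp53inp1, an autophagy and death protein, and Fas, the death receptor, rose by 1.99 ± 0.20 (SE, adjusted p = 0.000143) and 2.92 ± 0.38 (SE, adjusted p = 0.000192). Trp53 itself and Pmaip1, which encodes NOXA, were the 2 that fell, by 0.61 ± 0.08 (SE, adjusted p = 0.000166) and 0.70 ± 0.10 (SE, adjusted p = 0.000262). Pmaip1 changed by -0.85 (adjusted p = 0.003698) in the control, a difference of 0.15 (adjusted p = 0.437). Of the BCL2 family, 14 were tested, 6 rose and 4 fell, with a median log2 change of 0.33. In the control, 0 rose and 1 fell (median -0.17), and net of the control 4 were higher and 3 lower. Bcl2, which guards against apoptosis, stood at 150.1 and 161 CPM in clone 1 and 143 and 174 CPM in clone 5 at day 0, and at 55.3 and 49.9 CPM in clone 1 and 70.2 and 67.9 CPM in clone 5 at day 4. It fell by 1.39 ± 0.09 (SE, adjusted p = 5.77e-06). Bcl2l1, which encodes BCL-XL with the same role, stood at 28.3 and 26.9 CPM in clone 1 and 29.4 and 36.1 CPM in clone 5 at day 0, and at 76.7 and 74.6 CPM in clone 1 and 88.4 and 84.4 CPM in clone 5 at day 4. It rose by 1.41 ± 0.09 (SE, adjusted p = 4.08e-06). Bcl2l11, which encodes the death activator BIM, rose by 1.96 ± 0.15 (SE, adjusted p = 1.72e-05), and the activators Bid and Bad fell by 0.87 ± 0.10 (SE, adjusted p = 0.000107) and 0.44 ± 0.13 (SE, adjusted p = 0.0134). Of NRF2, glutathione and pentose phosphate genes, 20 were tested, 9 rose and 6 fell, with a median log2 change of 0.12, and 4 rose without clone 1. With shRen713 the counts were 1 and 0 and the median -0.10, while 8 were higher and 4 lower once the control was subtracted. Nfe2l2, which encodes NRF2, rose by 1.08 ± 0.08 (SE, adjusted p = 9.16e-06), Gsr, glutathione reductase, by 0.97 ± 0.11 (SE, adjusted p = 8.34e-05) and Rpe, of the pentose phosphate path, by 1.01 ± 0.09 (SE, adjusted p = 2.57e-05), while Txn1, thioredoxin, fell by 0.68 ± 0.07 (SE, adjusted p = 5.12e-05). 16.8% of the windows of Bad and 17.7% of Rpe are shared. The change of Pmaip1 was -0.27 against the day 0 replicate 2 libraries alone. The call of Bad was lost against the day 0 replicate 1 libraries alone (-0.29, adjusted p = 0.132), without day 0 replicate 2 of clone 5 (-0.31, adjusted p = 0.119) and without clone 1 (-0.27, adjusted p = 0.199).

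With the control's change subtracted, the 4 highest genes were Retnlg (10.03 ± 1.62 (SE, adjusted p = 0.00184)), Stfa2 (6.93 ± 0.59 (SE, adjusted p = 0.000787)), BC117090 (6.89 ± 0.69 (SE, adjusted p = 0.000229)) and Il1b (6.73 ± 1.20 (SE, adjusted p = 0.00364)). The 4 lowest were Flt3 (-5.004 ± 0.54 (SE, adjusted p = 0.000298)), Cth (-3.69 ± 0.22 (SE, adjusted p = 2.42e-05)), Aldh1l2 (-3.596 ± 0.39 (SE, adjusted p = 0.000297)) and Mpo, given above. For Retnlg the call against the control was lost without the clone block, against the day 0 replicate 2 libraries alone, without day 0 replicate 1 of shRen713 clone 7 and without shRen713 clone 7, with values from 5.37 to 11.61 and adjusted p of up to 0.975. For Stfa2 the call against the control was lost without shRen713 clone 7 (6.697, adjusted p = 0.0514). For BC117090 the call against the control was lost without shRen713 clone 7 (3.67, adjusted p = 0.974). For Il1b the call against the control was lost without shRen713 clone 7 (6.16, adjusted p = 0.0966). Its difference from the control was 4.34 without clone 1. For Flt3 the call against the control was lost without the clone block (-5.26, adjusted p = 0.0781). Of the 633 genes that rose in the control, 431 also rose with shOgdh346, which is 68.1% of the former and 10.0% of the latter, and 29 of shOgdh346's rises fell in the control. Of the 347 control falls, 255 fell with shOgdh346, 73.5% of the former and 6.1% of the latter. The number of differences from the control fell to 1154 higher and 1221 lower without shRen713 clone 2, and to 1019 and 1089 without its clone 7.

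The other hairpin against Ogdh gave changes of the same direction in most genes. With shOgdh2081, 3914 genes rose (27.5%) and 3693 fell (25.9%), 53.4% in all. The 3343 shared rises are 77.7% of those of shOgdh346 and 85.4% of those of shOgdh2081, and the 3254 shared falls are 78.0% and 88.1%. Ogdh changed by -1.89 with shOgdh2081, a difference of 0.24 ± 0.22 (SE, adjusted p = 0.752). The difference between the hairpins passed for 8 genes with a higher change in shOgdh346 (0.0561%) and 7 with a lower one (0.0491%), 0.105% in all. These counts were 13 and 7 with RLE scaling, 16 and 7 with upper quartile scaling, and 75 and 26 in DESeq2, and at an unadjusted p under 0.05 1421 genes differed (9.97%). The 4 highest were Wfdc17, Tgm2, Gpnmb and Dab2. Wfdc17, a secreted protein of macrophages, changed by 2.95 ± 0.19 with shOgdh346 and by -0.56 with shOgdh2081, a difference of 3.51 ± 0.30 (SE, adjusted p = 0.00571). For Tgm2, Gpnmb and the endocytic adaptor Dab2 the differences were 2.73 ± 0.26 (SE, adjusted p = 0.0116), 2.69 ± 0.22 (SE, adjusted p = 0.00571) and 2.21 ± 0.29 (SE, adjusted p = 0.0309).

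The 4 lowest were Zbtb16, Angpt1, Pdgfrb and Cnn3. Zbtb16, which encodes the repressor PLZF, changed by -2.22 ± 0.17 with shOgdh346 and by -0.21 with shOgdh2081, a difference of -2.02 ± 0.23 (SE, adjusted p = 0.0245). For Angpt1, the TIE2 ligand, Pdgfrb, a receptor kinase, and Cnn3, an actin-binding calponin, the differences were -1.67 ± 0.22 (SE, adjusted p = 0.0309), -1.35 ± 0.17 (SE, adjusted p = 0.0309) and -1.27 ± 0.15 (SE, adjusted p = 0.0245). Pdgfrb was not called with shOgdh346 (-0.14 ± 0.12 (SE, adjusted p = 0.3201)). 15.8% and 16.2% of the windows of Angpt1 and Cnn3 are shared. None of these 8 differences passed in every alternative. The call of Wfdc17 was lost without the clone block (3.49, adjusted p = 1). The call of Tgm2 was lost without the clone block, without day 0 replicate 1 of clone 1, without day 0 replicate 2 of clone 5, without day 0 replicate 1 of shOgdh2081 clone 3, without day 0 replicate 1 of shOgdh2081 clone 5, without clone 1 and without shOgdh2081 clone 5, with values from 2.32 to 3.25 and adjusted p of up to 1. Its difference was 5.11 against the day 0 replicate 2 libraries alone. The call of Gpnmb was lost without the clone block, against the day 0 replicate 2 libraries alone, without day 0 replicate 1 of shOgdh2081 clone 3 and without shOgdh2081 clone 5, with values from 2.38 to 2.86 and adjusted p of up to 1. The call of Dab2 was lost among genes of at least 5 CPM, without the clone block, without day 0 replicate 2 of clone 1, without day 0 replicate 1 of shOgdh2081 clone 3, without day 0 replicate 1 of shOgdh2081 clone 5, without clone 5, without shOgdh2081 clone 3 and without shOgdh2081 clone 5, with values from 1.64 to 2.47 and adjusted p of up to 1. The call of Zbtb16 was lost among genes of at least 5 CPM (-2.001, adjusted p = 0.05604), without the clone block (-2.03, adjusted p = 0.277) and without shOgdh2081 clone 5 (-1.82, adjusted p = 0.0831). The call of Angpt1 was lost among genes of at least 5 CPM, without the clone block, against the day 0 replicate 2 libraries alone, without day 0 replicate 1 of clone 1, without day 0 replicate 1 of shOgdh2081 clone 3, without shOgdh2081 clone 3 and without shOgdh2081 clone 5, with values from -1.74 to -1.56 and adjusted p of up to 1. The call of Pdgfrb was lost among genes of at least 5 CPM, without the clone block, without day 0 replicate 2 of clone 1, without day 0 replicate 1 of shOgdh2081 clone 3, without clone 1, without shOgdh2081 clone 3 and without shOgdh2081 clone 5, with values from -1.37 to -1.25 and adjusted p of up to 1. The call of Cnn3 was lost among genes of at least 5 CPM, without the clone block, without day 0 replicate 1 of shOgdh2081 clone 3 and without clone 1, with values from -1.302 to -1.19 and adjusted p of up to 1.

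**Figure D5:**
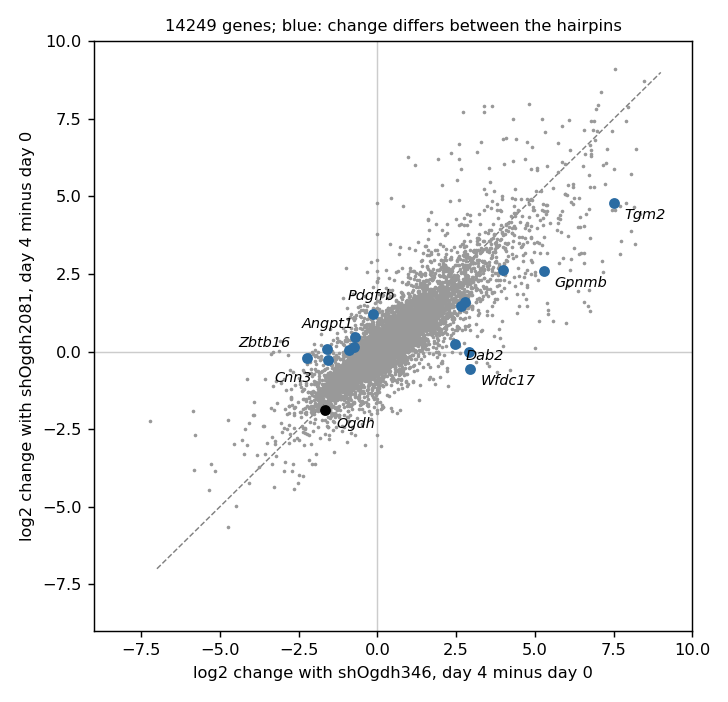
Log2 change from day 0 to day 4 with shOgdh346 (horizontal axis) and with shOgdh2081 (vertical axis) for the 14249 genes tested; blue points are the 15 genes whose difference between the hairpins had an adjusted p under 0.05, the black point is Ogdh, and the dashed line marks an equal change. Wfdc17, Tgm2, Gpnmb and Dab2 lie to the right of the line, Zbtb16, Angpt1, Pdgfrb and Cnn3 to its left.

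The clones moved in the same direction but not to the same extent. Of the 8476 genes called, 8455 changed with the same sign in both clones, on which the calls themselves rest. Among the 3135 called genes past 2-fold, the change was larger in clone 1 for 2251 (71.8%), with a median size of 1.61 in clone 1 and 1.37 in clone 5 on the log2 scale. That share was 62.9% over all 14249 genes tested and 68.8% over the 8476 called. Of 11750 genes with enough counts in the 8 libraries, the change was higher in clone 5 for 243 (2.07%) and lower for 159 (1.35%), 3.42% in all. The 4 with the largest difference upwards were Lgmn, Ifi203, Selenop and Frmd4b. Lgmn, a lysosomal protease, stood at 6.33 and 6.298 CPM in clone 1 and 8.92 and 6.11 CPM in clone 5 at day 0, and at 11.2 and 8.74 CPM in clone 1 and 109.8 and 101 CPM in clone 5 at day 4. Only the day 4 libraries of clone 5 stood far apart, a clone difference of 3.19 ± 0.25 (SE, adjusted p = 0.000149). Ifi203, an interferon-induced protein, Selenop, a selenium carrier, and Frmd4b, a scaffold protein, differed by 3.14 ± 0.50 (SE, adjusted p = 0.00705), 2.79 ± 0.56 (SE, adjusted p = 0.0202) and 2.73 ± 0.49 (SE, adjusted p = 0.01699). The call of Ifi203 was lost without day 4 replicate 1 of clone 1 (3.15, adjusted p = 0.0609), without day 4 replicate 2 of clone 1 (3.14, adjusted p = 0.0674) and without day 4 replicate 2 of clone 5 (2.86, adjusted p = 0.0758). The call of Selenop was lost in DESeq2, against the day 0 replicate 1 libraries alone, without day 0 replicate 2 of clone 5, without day 4 replicate 1 of clone 1, without day 4 replicate 2 of clone 1, without day 4 replicate 1 of clone 5 and without day 4 replicate 2 of clone 5, with values from 2.16 to 2.85 and adjusted p of up to 0.125. The call of Frmd4b was lost without day 4 replicate 1 of clone 1, without day 4 replicate 2 of clone 1, without day 4 replicate 1 of clone 5 and without day 4 replicate 2 of clone 5, with values from 2.38 to 3.06 and adjusted p of up to 0.148.

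The 4 largest downwards were Adcy2, Egr3, Eogt and Fn1. Adcy2, an adenylate cyclase, stood at 0.0541 and 0 CPM in clone 1 and 14.6 and 12.4 CPM in clone 5 at day 0, and at 6.41 and 7.52 CPM in clone 1 and 64.3 and 61.7 CPM in clone 5 at day 4. It was nearly absent from clone 1 at day 0 and rose there further, a difference of -4.97 ± 0.58 (SE, adjusted p = 0.000969). Egr3, an early growth response factor, Eogt, which adds a sugar to secreted proteins, and Fn1, fibronectin, differed by -3.33 ± 0.51 (SE, adjusted p = 0.00563), -2.89 ± 0.35 (SE, adjusted p = 0.00102) and -2.68 ± 0.51 (SE, adjusted p = 0.02001). 13.9% of the windows of Selenop are shared with other genes. The call of Egr3 was lost without day 4 replicate 1 of clone 5 (-3.29, adjusted p = 0.0538). The call of Fn1 was lost without day 4 replicate 1 of clone 1, without day 4 replicate 2 of clone 1, without day 4 replicate 1 of clone 5 and without day 4 replicate 2 of clone 5, with values from -2.88 to -2.42 and adjusted p of up to 0.139.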

How the data were processed

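The authors deposited 1 table of counts of reads per gene for 24 libraries of RNA from RN2 cells, with mouse Ensembl identifiers, symbols, positions in mm10 (GRCm38) and transcript length; no row lacked a gene. Per the submitters' processing notes, the tools included STAR 2.6.1a, featureCounts 1.6.3, Trimmomatic 0.36 and FastQC 0.11.5, whose roles are not given. The extract protocol in the labels names another genome and another unit; the deposited values are whole-number counts under mouse identifiers and were used as such. Reads were single-end and of 76 bases, and no source used here gives the strand or multi-mapping setting, so reads of overlapping or antisense genes cannot be told apart.

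The 2 libraries of each clone on each day were added up into 12 sums. edgeR 4.0.16 in R 4.3.3 (filterByExpr, TMM scaling, robust quasi-likelihood fit) had a term for each clone and a day 4 term for each hairpin; 14249 of 53465 genes were tested, with 3 residual and a median of 6.11 prior degrees of freedom. An adjusted p under 0.05 was a call. The control change and the shOgdh2081 change were subtracted as contrasts of that fit. The difference between the clones was fitted with edgeR on the 8 shOgdh346 libraries (11750 genes), so there the replicates are libraries and the spread may be technical. The labels do not say whether libraries of a clone and day were separate cultures. CPM values use TMM-scaled library sizes. The script was tested on simulated data. Clones tie day 0 to day 4 by the labels, and deviations of clones from their hairpin's mean correlated between days at 0.60 for shOgdh346.

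The members, gene lists and tests were chosen with earlier results of these data known. Genes named are the complex list, the 15 largest rises and falls with at least 5 CPM and no overlap between days, for each list at most 4 members of smallest p, and the 4 largest in each direction of the other comparisons; predicted gene models outside the lists were passed over. Promoters are from the RefSeq table of GRCm38.p6. Shared windows are the percent of a gene's 76-base transcript stretches found in other genes, either strand. Alternatives were RLE and upper quartile scaling, DESeq2 1.42.0, other filters on low counts, other blocks and units, and omission of each library and clone. A few genes of the lists count in the numbers given but are not reported by name here.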

Additional observations from a re-analysis of the deposited data

Results flagged for a closer look

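Of 128 groups of 4 libraries examined by Dixon's test at the 95% level, 2 held a library apart from the rest. Chance gives about 1 in 20 for independent values. A group here holds 2 libraries from each of 2 clones, so that rate need not apply. The first of the 2 flags was the level of Lgmn at day 0, where replicate 1 of clone 5 stood at 8.915 CPM. The other was the total of counts, where replicate 1 of clone 1 at day 0 had 18718239.

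The change differed between shOgdh346 and shOgdh2081 for 8 named genes by the test of the difference. It was higher with shOgdh346 for Wfdc17 (3.51 on the log2 scale), Tgm2 (2.73), Gpnmb (2.693) and Dab2 (2.213). It was lower for Zbtb16 (-2.017), Angpt1 (-1.672), Pdgfrb (-1.351) and Cnn3 (-1.272).

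The change differed between the shOgdh346 clones for another 8. It was higher in clone 5 for Lgmn (3.19), Ifi203 (3.136), Selenop (2.788) and Frmd4b (2.731). It was lower in clone 5 for Adcy2 (-4.975), Egr3 (-3.334), Eogt (-2.887) and Fn1 (-2.678).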

How the results depend on the processing

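The counts for day 4 against day 0 stayed within 1.5 times of the reported ones in all alternatives (without clone 1, 2900 rose and 2919 fell; leaving out single libraries, 3853 to 4237 rose and 3923 to 4189 fell), and Ogdh changed by -1.90 to -1.45. Of the 216 genes named as called for this change, 176 kept the call in every alternative. With the replicate block 4546 rose and 4194 fell, 3006 were higher and 3139 lower than the control, 239 and 108 differed from shOgdh2081, and 207 and 128 differed between clones. The difference between replicates of a clone at day 0 did not go with that at day 4 (correlations of -0.018 to 0.017). These correlations cannot tell whether day 0 libraries of the same replicate number share a difference across clones. Against the control, 901 were higher and 1395 lower without the clone block, 1154 and 1221 without shRen713 clone 2, and 1019 and 1089 without its clone 7. Against shOgdh2081, higher and lower counts were 13 and 7 with RLE scaling, 16 and 7 with upper quartile scaling, 75 and 26 in DESeq2, 271 and 138 with no filter, 3 and 0 at 5 CPM or more, 0 and 0 without the clone block, and 454 and 238 with 24 libraries as units. Higher counts were 35 against day 0 replicate 1 and 15 against replicate 2; leaving out a library gave 1 to 28 higher and 1 to 11 lower. Without shOgdh346 clone 1 the counts were 31 and 5, without its clone 5 41 and 18, and without shOgdh2081 clones 3 and 5 18 and 4, and 3 and 5. Between clones, 556 were higher with no filter, 976 and 770 higher and lower against day 0 replicate 1, 514 and 437 against replicate 2, and 48 to 373 and 23 to 295 when a library was left out. Of the genes below, Hoxa9 and Nras were called against day 0 replicate 2 alone (0.25 and 0.32), and none was called at a turned sign. Ogdh between hairpins was -0.0617 without shOgdh2081 clone 5. Without clone 5 Hoxa9 was -0.0239. Meis1 was -0.00051 against day 0 replicate 2, -0.0015 without clone 1 and -0.0196 to 0.0622 when single libraries were left out. Nras was -0.0301 against day 0 replicate 1 and -0.0581 without clone 1. Ogdhl was 0.0803 against day 0 replicate 2 and 0.17 without clone 1. The causes were not tested.

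With 2 clones a hairpin, the errors rest on few units, and a lone clone is assumed to vary like the other groups. Genes near 1 CPM carry few counts, so their day 0 levels and folds are loosely set.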
